A study of Mus musculus with 3 samples.

Results

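Ly6a, Ly6d, Ly6e and Ly6h are 4 genes of the lymphocyte antigen 6 family, and they were followed in EpH4-PR cells on arrays of the whole mouse genome. The probes were taken as all those that the array files name after one of these genes, which gave 5 probes of 41174: 1 each for Ly6a, Ly6d and Ly6e and 2 for Ly6h. The 4 genes stand among 29273 gene names on the array. Ly6d was selected on its ratio, as one of the most extreme probes in a comparison that the authors deposited as a table of their own and that was not used here. Its array values are therefore given as a description without a test.

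EpH4-PR cells are EpH4 mouse mammary epithelial cells, a normal line from mid-gestation gland, that were stably transfected with the A isoform of the progesterone receptor, selected as clones under neomycin, and kept in medium with 10% FBS to about 75% confluence. RNA of these cells was labelled with Cy5 on 3 two-channel arrays, taken as replicates 1, 2 and 3, and a commercial mouse reference RNA (Stratagene mouse standard) was labelled with Cy3 on each. No dye swap was made, so a dye effect of a probe cannot be told apart from a difference between the RNAs. Arrays of the empty vector line EpH4-EV were not analysed here, so every ratio is a level in EpH4-PR cells relative to the reference RNA and none is an effect of the receptor.

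Ly6 proteins are small, cysteine-rich proteins with a three-finger fold, and most of them are held on the outer face of the plasma membrane by a glycosylphosphatidylinositol (GPI) anchor. Ly6a encodes Sca-1, which marks blood stem and progenitor cells and also some mammary epithelial cells. Ly6d encodes the ThB antigen of lymphocyte precursors and stratified epithelium, Ly6e an interferon-inducible protein also known as Sca-2 or TSA-1, and Ly6h a protein found chiefly in brain that acts on nicotinic acetylcholine receptors.

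The scanner software marked 29603 to 30939 probes per array as well above background for EpH4-PR RNA, and the Pearson correlation of the log2 ratios between arrays was 0.923 to 0.952 (across probes, which are no independent replicates). Precision is limited by the number of arrays, and nothing in the labels says that the replicates were separate cultures, so p-values measure only the spread between these arrays. The epithelial label was checked against 6 marker genes, and all were well above background for EpH4-PR RNA on all 3 arrays. Of these, 5 (Cdh1, Epcam, Krt7, Krt8 and Krt18) were higher in EpH4-PR RNA than in the reference, while Krt19 was lower (log2 ratio -2.62 ± 0.18, SD, n = 3). By the rule for calls given below, 6 of their 7 probes were called higher and 1 lower, beside 2.26% and 3.83% of all probes. The 4 basal and myoepithelial genes had 9 probes, 1 called higher, 1 lower and 7 not called. Krt14 was the gene called higher, at 2.08 ± 0.13 (SD, n = 3). The probe called lower, A_52_P210078 of Acta2, was well above background for EpH4-PR RNA on 1 of 3 arrays. The 4 endothelial genes Pecam1, Cdh5, Kdr and Emcn, which mark another cell type that carries Ly6 proteins, had 1 of 5 probes well above background for EpH4-PR RNA on all 3 arrays.

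Each of the 4 Ly6 genes had at least 1 probe with a measured level in EpH4-PR cells. Relative to the reference RNA, Ly6a was lower (2.53-fold), Ly6d lay below 0 on all 3 arrays, Ly6e was modestly above 0, and the brighter probe of Ly6h was slightly above 0. Of the 5 probes, 4 were well above background on all 3 arrays in both channels, and none was saturated. A probe was called when its adjusted p in limma was below 0.05 and its log2 ratio was 1 or more in size. By this rule 1 of the 4 tested probes, that of Ly6a, was called lower and 0 were called higher, where 3.83% of all probes were called lower, 2.26% higher and 6.1% either way. By adjusted p alone, 3 of the 4 tested probes passed, beside 50.3% of all probes, so a share this large is not particular to Ly6 genes.

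**Figure D1:**
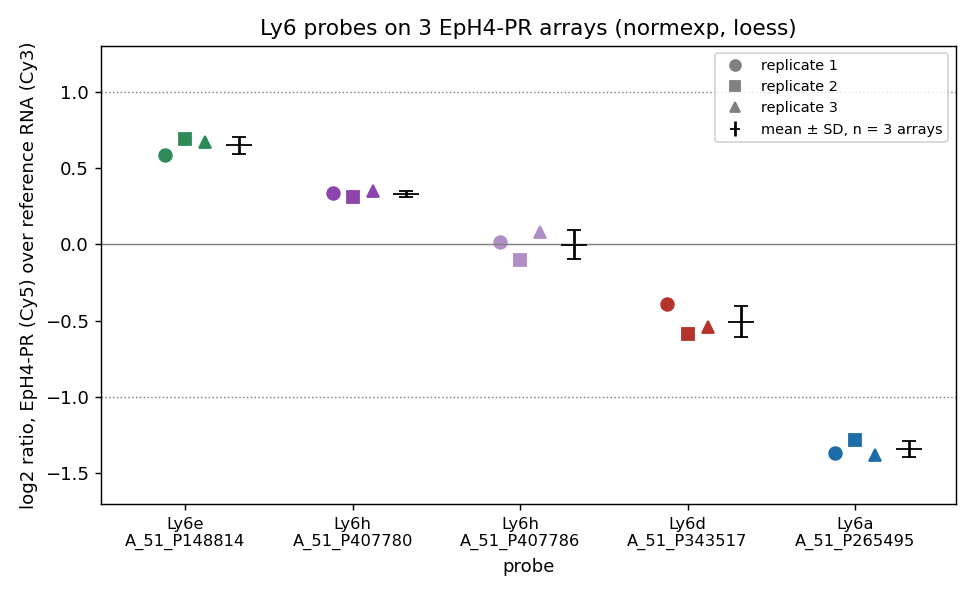
Log2 ratio of EpH4-PR RNA (Cy5) over reference RNA (Cy3) for the 5 Ly6 probes, one symbol per array with the mean and SD beside it; dotted lines mark a log2 ratio of 1 either way. The 3 arrays of a probe lie close together, and Ly6a lies beyond the lower line on all of them.

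Ly6a, the gene of Sca-1, gave a mean spot intensity of 392, 385 and 410 in the EpH4-PR channel on replicates 1, 2 and 3, in scanner units before any correction. The reference channel of the same spots read 482, 452 and 473. All 6 readings were well above background, so Ly6a RNA was measured in both RNAs, with the reference reading higher on every array. After normalization the log2 ratio was -1.36, -1.28 and -1.38, a mean of -1.34 ± 0.05 (SD over 3 arrays, n = 3; standard error 0.05, limma's Benjamini-Hochberg adjusted p = 3.8e-05). Only 2.29% of all probes had a lower ratio. Over 14 alternative settings the ratio stayed below 0 and its adjusted p lay between 2.61e-08 and 0.0216. Those that changed only the filter, the variance model or the test could not move the ratio. The ratio was inside the limit of 1 log2 unit under median centring (-0.30) and without normalization within arrays (-0.15).

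Blood cells are the best known source of Ly6a, and 3 of the 7 blood marker genes were called lower in EpH4-PR RNA. Of their 12 probes 4 were called lower, 0 higher and 8 not at all, where 3.83% of all probes were called lower and 2.26% higher. Their summed raw intensity was 1281 to 1592 in the EpH4-PR channel against 3009 to 3473 in the reference channel. The median negative control spot read 57.3 to 74.1 in the EpH4-PR channel and 91.8 to 121 in the reference channel, so raw sums of dim probes differ between the channels even without signal. The 3 genes were Lyz2, Cd68 and Ptprc. Lyz2 (lysozyme) was at -3.41 ± 0.18 on probe A_52_P238027 and Cd68 (a macrophage protein) at -1.84 ± 0.14. Ptprc (the pan-leukocyte antigen CD45) was at -1.40 ± 0.06 on probe A_52_P239834 (log2 ratios, SD, n = 3 for each of these values). A further Ptprc probe, A_52_P677117, was well above background in the reference on all 3 arrays and for EpH4-PR RNA on 0 of 3. Probes of the same gene differed: Lyz2 probe A_51_P321150 was at -0.24 ± 0.06 (SD, n = 3) and Ptprc probe A_52_P11901 at -0.19 ± 0.13 (SD, n = 2). Both were not called, and neither was well above background for EpH4-PR RNA on all 3 arrays. Other blood markers did not lie below the reference, such as Cd79a at 0.06 ± 0.16 and a probe of Cd3e (A_51_P455681) at 0.11 ± 0.07 (SD, n = 3 each). Ly6a is also known from connective tissue cells, and all 4 mesenchymal marker genes (Vim, Col1a1, Col1a2 and Col3a1) had a probe called lower. Of their 9 probes 5 were called lower and 0 higher, again beside 3.83% and 2.26% of all probes. Their summed raw intensity was 2842 to 3337 for EpH4-PR RNA against 40878 to 46429 for the reference. The part of blood and mesenchymal RNA of the reference in the ratio of Ly6a was not tested. In such pooled RNA, fewer cells of a type and less RNA per cell cannot be told apart.

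Ly6d, the gene of the ThB antigen, read 231, 195 and 235 in the EpH4-PR channel on replicates 1, 2 and 3. In the reference channel it read 216, 212 and 200. The spots were well above background on all 3 arrays in both channels, so the transcript was measured in EpH4-PR cells, and on raw intensity replicate 2 alone read lower in EpH4-PR than in the reference. The normalized log2 ratios were -0.39, -0.59 and -0.54, with a mean of -0.51 ± 0.10 (SD, n = 3), or 1.42-fold lower. Among all probes 11.2% had a lower ratio, so Ly6d is not extreme against the reference RNA. Its SD was the largest of the 5 Ly6 probes, beside a median SD of 0.09 over the 25727 probes that both channels read well above background. Under median centring the ratio turned to 0.17, and without normalization within arrays to 0.32.

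Ly6e, the interferon-inducible member, was the brightest of these probes in the EpH4-PR channel, at 1473, 1517 and 1622. Its reference channel read 426, 414 and 415. The log2 ratio was 0.58, 0.69 and 0.67, with a mean of 0.65 ± 0.06 (SD over 3 arrays, n = 3; standard error 0.05, limma's Benjamini-Hochberg adjusted p = 0.0003), or 1.57-fold higher. All 3 arrays lay above 0, but none reached 1, so the probe was not called. The ratio remained above 0 in every alternative that could move it, and over all 14 the adjusted p lay between 3.2e-08 and 0.0206. It exceeded 1 under median centring (1.87) and without normalization within arrays (2.02), and Ly6e then counts as called higher.

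Ly6h, the member known from brain, was read by 2 probes that carry the same transcript accession, of which 1 gave a level above background. Probe A_51_P407780 read 342, 359 and 335 in the EpH4-PR channel. In the reference channel that probe read 192, 195 and 156. Its log2 ratio was 0.33, 0.31 and 0.35, a mean of 0.33 ± 0.02 (SD over 3 arrays, n = 3; standard error 0.04, limma's Benjamini-Hochberg adjusted p = 0.00227), or 1.26-fold higher. This small ratio had the lowest SD of the 5 probes, and it passed 1 under median centring (1.102) and without normalization within arrays (1.25). The adjusted p lay between 3.05e-07 and 0.0208 over the alternatives.

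Probe A_51_P407786 of Ly6h read only 78.8, 73.5 and 65.1 in the EpH4-PR channel, where the median negative control spot read 72.6, 74.1 and 57.3. It was not well above background in that channel on any array, and in the reference channel it was so on 1 of the 3 arrays (116, 115 and 92.3, against negative control medians of 119, 121 and 91.8). No fold is given for it. Its log2 ratio was 0.02, -0.10 and 0.08 (mean 0.00 ± 0.09, SD, n = 3; limma's Benjamini-Hochberg adjusted p = 0.984, and between 0.0023 and 0.986 over the alternatives). With a signal at the level of the negative controls, its ratio is not set against those of the other probes.

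**Figure D2:**
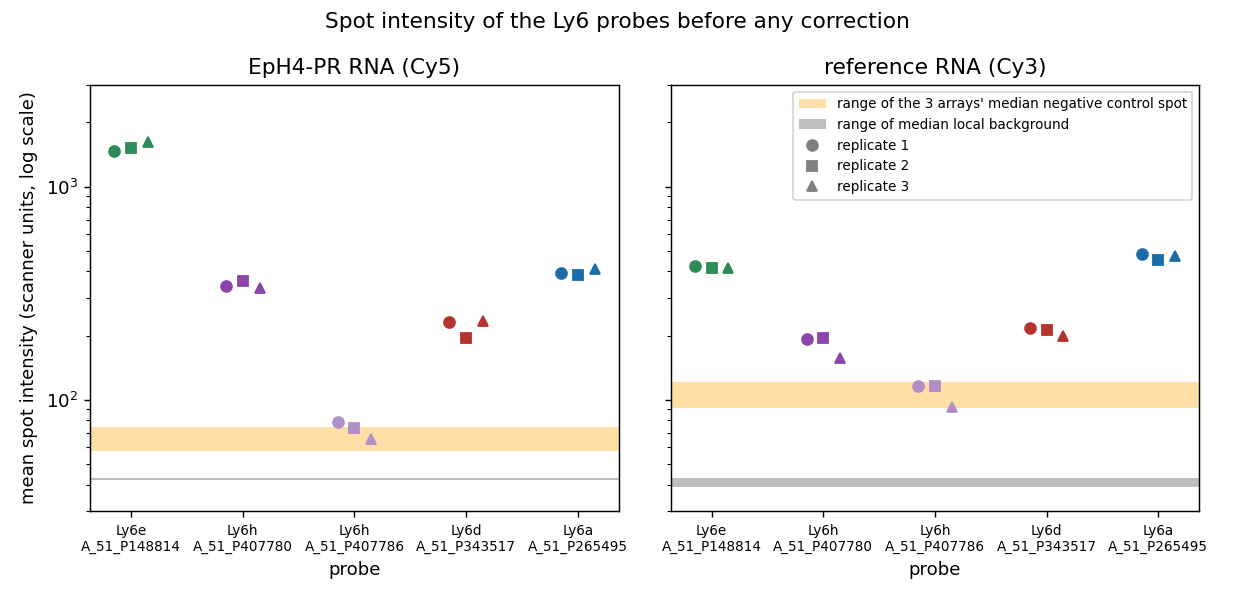
Mean spot intensity of the 5 Ly6 probes in the EpH4-PR channel (left) and the reference channel (right), in scanner units on a log scale, one symbol per array; bands span the 3 arrays' median negative control spot and median local background. Ly6e is the brightest probe in EpH4-PR RNA at 1473 to 1622, and Ly6h probe A_51_P407786 lies at the level of the negative controls in both channels.

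From high to low, the log2 ratios of the 4 probes well above background ran from Ly6e through Ly6h (A_51_P407780) and Ly6d to Ly6a. The arrays of neighbouring probes in this order did not overlap, and the smallest gap between neighbouring means, between Ly6e and A_51_P407780, was 0.32. The gap between Ly6d and Ly6a was 0.84 log2 units. The order describes ratios to the reference and not the relative abundance of the transcripts, since probes differ in how brightly they bind.

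**Figure D3:**
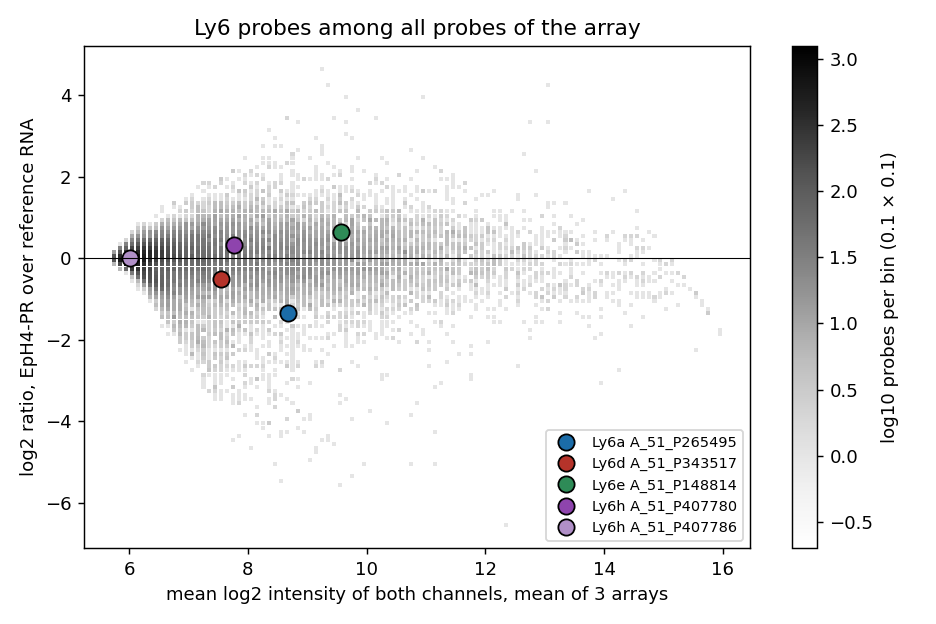
Log2 ratio over the reference RNA against the mean log2 intensity of both channels (means of 3 arrays), with all probes in grey bins of 0.1 by 0.1 log2 units and the 5 Ly6 probes as coloured points. All 5 probes lie within the cloud, with Ly6a in its sparse lower part, where 5% of the 1000 probes nearest in brightness had a lower ratio.

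The values that moved with the normalization were set against probes of the same brightness, since EpH4-PR RNA gave more Cy5 than Cy3 signal on bright spots before loess. Without normalization within arrays the 1000 probes nearest to Ly6d in brightness had a median log2 ratio of 0.85, and the 1000 nearest to Ly6e one of 1.44. Less that median, Ly6d was at -0.52 under loess and at -0.53 both under median centring and without normalization within arrays. Over all 14 alternatives Ly6d lay between -0.87 and -0.48 relative to probes of its brightness. By the same measure Ly6a lay between -1.61 and -1.35, Ly6e between 0.56 and 0.63, and the brighter Ly6h probe between 0.26 and 0.41. Relative to probes of like brightness, then, Ly6a and Ly6d were below and Ly6e and A_51_P407780 above in every alternative run. The alternatives of filter, variance model and test repeat the values of the main run here. Of the 1000 probes nearest in brightness, 5% had a lower ratio than Ly6a, 19.2% a lower ratio than Ly6d, 68.7% a lower ratio than A_51_P407780 and 81.4% a lower ratio than Ly6e.

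**Figure D4:**
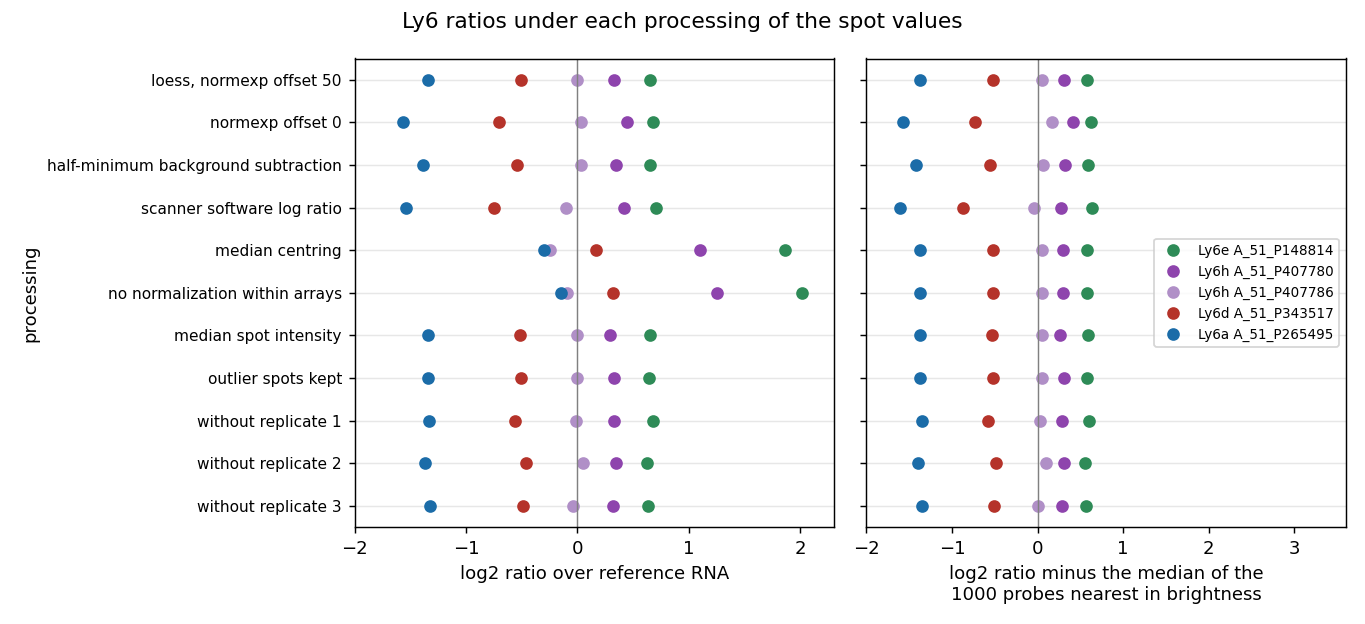
Log2 ratio of the 5 Ly6 probes under 11 ways of processing the spots (left), and the same after the median of the 1000 probes nearest in brightness was taken off (right). On the left all probes but A_51_P407786 shift upwards under median centring and without normalization within arrays, where Ly6d passes 0 (0.17 and 0.32). On the right Ly6d stays between -0.87 and -0.48, where the subtraction corrects for brightness much as loess does, so likeness between normalizations is built in.

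The 4 genes also share a place in the genome: a gene table of assembly GRCm38.p6 puts them on one chromosome in the order Ly6d, Ly6e, Ly6a, Ly6h, with 33 other genes between the first and the last. Of these 33 genes, 7 had a probe that could be matched, which is a thin sample of the cluster, and 1 of the 7 probes was called lower and 0 higher, beside 3.83% and 2.26% of all probes; a single call among so few probes is no result about the cluster. Their median log2 ratio was -0.50, beside -0.01 over all probes, but it was the value of the single Ly6m probe, whose arrays disagreed (-0.74, -0.84 and 0.07). The median lay between -0.92 and -0.12 over the alternatives, at -0.27 under median centring and at -0.33 without replicate 2. Ly6c1, the gene after Ly6a in that order and a surface marker of monocytes and other blood cells, had a log2 ratio of -1.18 ± 0.13 (SD, n = 3; probe A_52_P230938), and it was the called probe. Ly6i gave -0.76 ± 0.02 and Ly6f -0.73 ± 0.06 (SD, n = 3 each). These 3 genes were below 0 on all 3 arrays, and their means stayed below 0 under median centring (-0.48, -0.27 and -0.17) and without normalization within arrays (-0.33, -0.12 and -0.02). Ly6e, which lies with 4 genes between it and Ly6a, went the other way at 0.65.

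**Figure D5:**
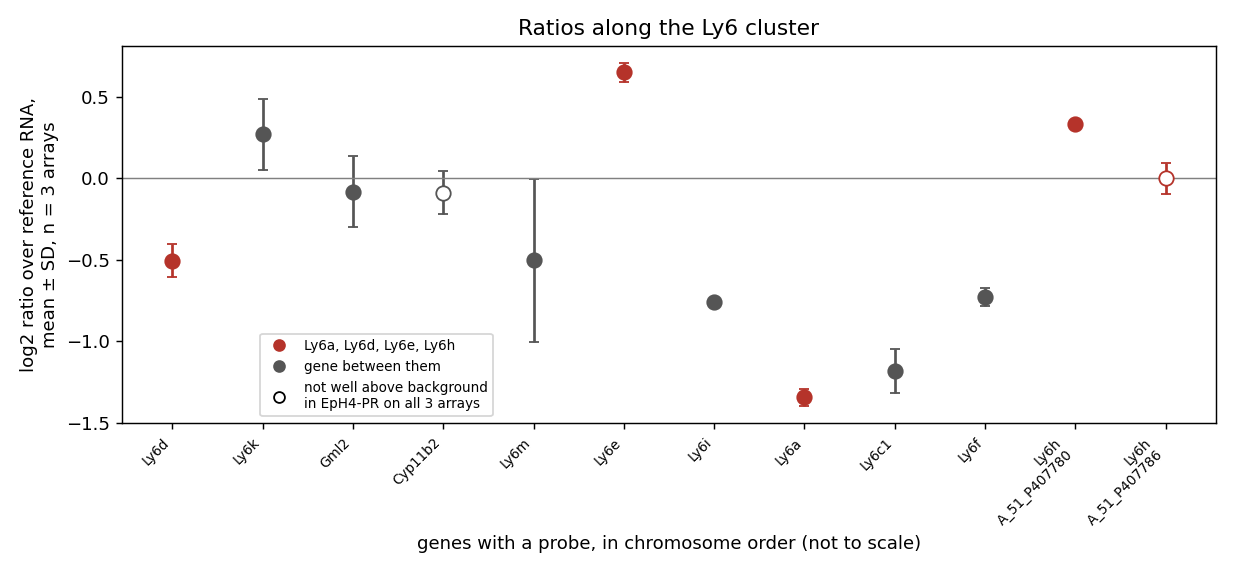
Log2 ratio over the reference RNA (mean ± SD, n = 3 arrays) for every matched probe of the Ly6 cluster, in the order of the genes along the chromosome and not to scale; red marks Ly6a, Ly6d, Ly6e and Ly6h, and open symbols were not well above background for EpH4-PR RNA on all 3 arrays. Ly6i, Ly6a, Ly6c1 and Ly6f lie between -1.34 and -0.73, with Ly6e before them at 0.65.

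Ly6a, Ly6c1, Ly6c2, Ly6i, Ly6f and Ly6g are close relatives in sequence, and how far a probe of one reads the RNA of another was not tested, so the values of Ly6a and these neighbours may not be separate measurements. A further probe that the files name Ly6c (A_51_P197528) was brighter than A_52_P230938 in EpH4-PR RNA (837 to 921 against 178 to 183) and had a log2 ratio of -1.55 ± 0.05 (SD, n = 3; limma's Benjamini-Hochberg adjusted p = 2.89e-05).

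Beyond the 4 genes, 39 other genes of the Ly6 and uPAR superfamily were listed, and 28 of them had 35 probes. Of these, 2 were called higher and 2 lower (5.71% each), beside 2.26% and 3.83% of all probes, and 31 were not called. Their median log2 ratio of -0.06 was close to that of all probes (-0.01). The probes called lower were the 2 of Ly6c. Those called higher were Lypd3 (2.05 ± 0.21), a GPI-anchored protein of stratified epithelium, and Tex101 (2.23 ± 0.25, SD, n = 3 each), a GPI-anchored protein known from germ cells. Both were well above background on all 3 arrays in both channels, and the files name the Lypd3 probe 2310061G07Rik. Under median centring 6 of the 35 probes were called higher and 0 lower, beside 7031 and 708 of all 41174 probes (932 and 1578 under loess). The calls of all probes thus shifted the same way. Ly6c was then at -0.29 and -0.48. Plaur, the urokinase receptor that gives the superfamily part of its name, was at 0.01 ± 0.09 and -0.06 ± 0.01 on its 2 probes (SD, n = 3 each).

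The GPI anchor that holds Ly6 proteins is built in the endoplasmic reticulum by a series of Pig proteins and joined to the protein by a transamidase. Of 29 genes of this assembly, 25 had 38 probes, of which 35 were well above background for EpH4-PR RNA on all 3 arrays. With limma 0 of the 38 were called in either direction, since none reached a log2 ratio of 1. Of the 38, 28 had an unadjusted limma p under 0.05. The methods' t-test used the same ratios and the same limit of 1, so it could call none of them either. By adjusted p alone 20 were above and 8 below the reference, beside 25.7% and 24.6% of all probes. Their median log2 ratio was 0.17, beside -0.01 over all probes. Under median centring it was 0.65, again beside -0.01 over all probes. In that setting 13 of the 38 probes were called higher and 0 lower, where 7031 and 708 of all 41174 probes were. The GPI probes were not set against probes of their own brightness, so these calls are no result about the list. Pigq and Piga, named after their values were seen, are parts of the enzyme of the first step: Pigq was at 0.91 ± 0.07 and 0.80 ± 0.07 on its 2 probes, while the probes of Piga, the catalytic subunit, disagreed at -0.87 ± 0.08 and 0.28 ± 0.07 (SD, n = 3 each).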

How the data were processed

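The authors deposited the Agilent Feature Extraction 8.1.1.1 output of 3 arrays with 43790 spots each, holding spot and local background intensity in both channels together with the log10 of Cy5 over Cy3. A table of the authors' own comparison (ratios, fold changes and p-values) was also deposited and was not used.

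Mean spot intensities were background corrected (normexp, offset 50) and loess normalized within arrays with control and outlier spots at weight 0; both were then left out (150, 18 and 3 outliers on replicates 1, 2 and 3). Spots of a probe were averaged, probes of a gene kept apart, and ratios tested against 0 with limma 3.58.1 in R 4.3.3 over all probes. The fit was tested on simulated data. Current symbols came from accessions (21445 of 23705 matched, GRCm38.p6).

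Named were all member probes and, from each other list described, the called genes with the largest ratios each way among probes well above background for EpH4-PR RNA on all 3 arrays (up to 4, or all where the text counts 5 or fewer). Ly6i, Ly6f, Ly6m, Plaur, Pigq, Piga, Cd79a, Cd3e, the endothelial genes and the Lyz2 and Ptprc probes that were below background or not called were named after their values were seen. The 14 alternatives varied background, normalization, spot summary, outliers, filter, variance model, test and arrays. Those of filter, variance model and test left the ratios of the probes they kept unchanged. Members and lists were chosen with earlier results of these data known. The comparison with probes of like brightness was added after the values were seen.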

Additional observations from a re-analysis of the deposited data

How the results depend on the processing

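Values are log2 ratios or, for lists, numbers of called probes. Median centring, and no normalization within arrays, weakened Ly6a to -0.30 and -0.15, turned Ly6d to 0.17 and 0.32, and took Ly6e to 1.87 and 2.02 and Ly6h (A_51_P407780) to 1.102 and 1.25, past the limit of 1. Ly6d moved by more than its SD with normexp offset 0 (-0.71) or the scanner's own log ratio (-0.74). Without normalization within arrays the median of all probes was 0.14 in place of -0.01. The counts over all probes (932 higher, 1578 lower) became 3125 and 3905 with normexp offset 0, 3616 and 3887 with the scanner's own log ratio, 7031 and 708 under median centring and 8464 and 574 without normalization within arrays; the share of higher calls went from 37.1% to 44.5%, 48.2%, 90.9% and 93.6%. In the same order of alternatives, the higher calls of the GPI list (0) became 8, 10, 13 and 16, with 1 lower call in the first; the lower calls of the superfamily (2) became 4, 4, 0 and 0; and those of the genes next to the Ly6 genes (1) became 3, 3, 0 and 0. The higher calls of the superfamily (2) became 6 under median centring and 8 without normalization within arrays. The cause was not tested, and the values for probes of like brightness largely repeat the correction that loess makes. Leaving out single replicates changed no call of the tested Ly6 probes and left the numbers of called probes of these lists as they were (which probes they were was not compared), with Ly6a at -1.37 to -1.32 and Ly6d at -0.56 to -0.47. Ly6h probe A_51_P407786 is limited by a signal at the level of the negative controls, and it has no value under the filter on dim probes. No paired analysis was possible because there is a single group of samples.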
